A study of Mus musculus with 6 samples.

Results

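The genes described here are the 10 that encode the vascular endothelial growth factor (VEGF) ligands, their receptor tyrosine kinases and the neuropilin co-receptors in the mouse. They were taken by gene symbol from the deposited count table, where all 10 were found among 54532 genes. The ligands are Vegfa, Vegfb, Vegfc, Vegfd and Pgf (placental growth factor), the receptors are Flt1 (VEGF receptor 1), Kdr (VEGF receptor 2) and Flt4 (VEGF receptor 3), and the neuropilins are Nrp1 and Nrp2. The libraries are bulk RNA-seq of primary cultures of endothelial cells from mouse aorta (MAEC), grown without further treatment, in a serum medium with heparin and endothelial growth factors. All carry the label Oct4 KO, a knockout limited to endothelial cells of the gene for the pluripotency factor OCT4, also called Pou5f1. Of the 6 libraries 3 came from female and 3 from male mice, and the study asked about sex differences in angiogenic responses. The Cre driver, the strain and the age of the mice are not given in the sources used here, and wild-type cells were not analysed here, so the comparison is female against male within the knockout. Nothing in the labels says whether libraries of one sex are separate cultures or mice, so the p-values speak only to the spread among these libraries, which may be technical.

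VEGF ligands are secreted dimers. VEGF-A binds FLT1 and KDR, of which KDR carries most of the growth and migration signal in blood vessel endothelium while FLT1 binds VEGF-A tightly and signals weakly, and a secreted form of FLT1 acts as a decoy. VEGF-B and PlGF bind FLT1. VEGF-C and VEGF-D bind FLT4, the receptor of lymphatic endothelium, and VEGF-C after processing also binds KDR. Neuropilins are co-receptors without a kinase domain, and they also bind class 3 semaphorins. NRP1 is known as a VEGF-A co-receptor of arterial endothelium and NRP2 as a VEGF-C co-receptor of venous and lymphatic endothelium. Gene counts do not separate the VEGF-A isoforms, nor membrane-bound from soluble FLT1 or neuropilins.

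Total counts per library were 19299742 to 23064738. Levels are given as CPM, the count scaled to the effective library size, and changes as log2 fold change of female over male with its standard error. Tests are from edgeR's quasi-likelihood fit on all 14814 genes that passed its low-count filter, with Benjamini-Hochberg adjustment over all of them and a call at an adjusted p under 0.05. The sexes differed widely, since 60.7% of all tested genes were called (30.9% with the female and 29.8% with the male level higher), and for 67.1% female and male CPM ranges were apart. The labelled cell type was checked on 24 pan-endothelial markers that leave out the VEGF genes. Of these 16 stayed under 1 CPM in every library, and 6 of them (Gpihbp1, Tal1, Sox17, Robo4, Emcn and Cldn5) were at 0 throughout. Cdh5, the VE-cadherin gene, was at 0, 4 and 0 counts (female) against 2, 0 and 3 counts (male). Most of the defining endothelial markers were thus at or near 0, against the label. The exceptions with the highest levels were Eng, at 92.1 ± 8.92 CPM (female) against 252.9 ± 31.9 CPM (male), and Cd34, at 44.1 ± 5.44 against 11.9 ± 1.52 CPM, which other cell types also express and which went in opposite directions. The summed CPM of the 24 markers was 152 to 154 in female and 255 to 318 in male cells. A set of 14 fibroblast markers summed to 34763 to 37350 against 21068 to 22931 CPM. Fn1 was the largest part of both fibroblast sums, at 18646 against 14235 CPM. These markers did not move together. Of the 13 tested, 9 showed a called female excess, 3 a called male excess and 1 neither. Dcn, for example, was at 6368 against 442 CPM, and Fbln1 at 70.8 against 595 CPM. Of 7 lymphatic endothelial markers, 5 stayed under 1 CPM in all libraries, and their sum (1642 to 1695 against 600.3 to 644 CPM) came from Pdpn and Nr2f2, which other cell types also express. Of 11 macrophage and leukocyte markers, Ptprc, Adgre1, Cd3e and C1qa were at 0 throughout, and the summed level was 69.8 to 86.5 CPM in female and 77.2 to 93.8 CPM in male cells. Most of that sum came from Cd14 (63.8 against 26.4 CPM) and Lyz2 (9.88 against 54.5 CPM), which went in opposite directions. The sums were 83.8 to 86.7 against 166 to 182 CPM for 11 smooth muscle markers (Myocd at 0), 456 to 475 against 761 to 798 CPM for 9 pericyte markers (Higd1b at 0, Rgs5 at 0.755 against 255.6 CPM and Cspg4 at 108 against 3.18 CPM, with 4 called higher and 4 lower in female cells), and 9.06 to 13.5 against 12.2 to 18.8 CPM for 9 mesothelial and epithelial markers (Msln and Upk3b at 0). Smtn was the largest part of the smooth muscle sums, at 57.5 against 132 CPM. Myh11, Tagln and Cnn1 averaged under 1 CPM in both sexes. Of the 7 smooth muscle markers tested, 4 showed a called male excess, 2 a called female excess and 1 neither. Itga8, for example, was at 19.1 against 5.84 CPM, and Acta2 at 3.70 against 23.3 CPM. Pdgfrb made up most of the pericyte sums, at 315 against 464 CPM. The part of these marker differences in the values below was not tested. In bulk libraries fewer cells of a type and less RNA per cell cannot be told apart.

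Of the 10 genes, 9 passed the low-count filter and 7 of those were called, against 60.7% of all tested genes. Vegfa, Flt1, Flt4 and Nrp2 were higher in female cells, and Vegfc, Vegfd and Nrp1 were lower. Vegfb and Pgf were not called, and Kdr had too few counts to be tested. For 8 of the 9 the libraries of one sex all lay on one side of the other, which held for 67.1% of all tested genes. The median log2 fold change of the 9 was -0.03, beside -0.01 over all tested genes, and the median size of the change regardless of sign was 1.42 beside 0.53. The ligands and the neuropilins each held genes called in opposite directions, while both tested receptors were higher in female cells.

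**Figure D1:**
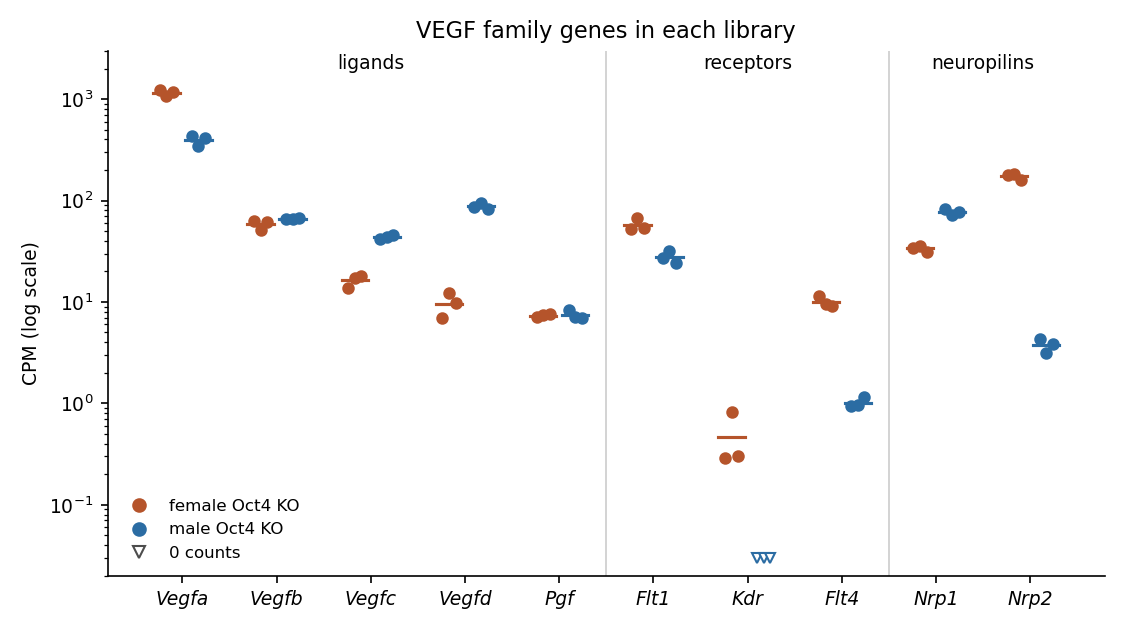
CPM on a log scale of the 10 VEGF family genes, with one point per library (female in orange, male in blue), a bar at the mean of 3 libraries and open triangles for 0 counts. The points of the sexes stand apart for every gene except Pgf, with Vegfa, Flt1, Kdr, Flt4 and Nrp2 above and Vegfb, Vegfc, Vegfd and Nrp1 below in female cells.

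Among the ligands, Vegfa had the highest level in both sexes and was about 2.91-fold higher in female cells. The gene (ENSMUSG00000023951) lies on mm10 chromosome 17, 46016993 to 46032369, minus strand, and encodes the main ligand of blood vessel growth, a classical target of hypoxia-inducible factors. Vegfa stood at 1227, 1067 and 1166 CPM in female replicates 1 to 3 and at 428, 343 and 418 CPM in the male ones. The lowest female library was well above the highest male library. The log2 fold change of Vegfa was 1.54 ± 0.09 (edgeR adjusted p = 2.74e-10). The sequence just upstream of the RefSeq start of Vegfa is shown because this ligand had the highest level of the family in both sexes. It covers chr17:46032378-46032627 of GRCm38 (mm10), read 5′ to 3′ on the minus strand, and holds none of the 5′ exon. Capitals here and in the promoters printed further on mark any match, on either strand, to ATGCAAAT (the octamer bound by OCT factors), ACGTG (core letters bound by hypoxia-inducible factors), their other form GCGTG, the GC box GGGCGG, the ETS factor motif CCGGAAGT or the core promoter box TATAAA, where matches may touch or overlap.
Vegfa: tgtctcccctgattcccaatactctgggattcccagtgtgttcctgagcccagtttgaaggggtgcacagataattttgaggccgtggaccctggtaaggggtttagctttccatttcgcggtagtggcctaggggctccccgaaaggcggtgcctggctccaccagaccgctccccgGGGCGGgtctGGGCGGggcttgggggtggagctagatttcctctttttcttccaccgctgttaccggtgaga
This window of Vegfa held 2 GC boxes and no match to the other letters. Bases further upstream were not searched. RefSeq has a second Vegfa window, chr17:46025164-46025413, of which 218 bases lie in annotated exons of the gene. It held 1 GC box, 1 GCGTG and 1 ACGTG match, the only ACGTG among the 12 windows of the 10 genes. Over 32851 RefSeq promoter windows of the same 250 bases, 1.6% held ATGCAAAT, 16.57% ACGTG, 28.16% GCGTG, 32.74% GGGCGG, 2.88% CCGGAAGT and 12.37% TATAAA. None of the 12 windows of the 10 genes held ATGCAAAT or CCGGAAGT. A match describes letters in a window and is neither a site nor a cause.

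Vegfc and Vegfd, the ligands of the lymphatic receptor FLT4, were both lower in female cells. Vegfd (ENSMUSG00000031380, chromosome X, 164373378 to 164402650) was at 6.95, 12.2 and 9.72 CPM (female) against 85.8, 95.5 and 83.4 CPM (male). Female replicate 1 had the lowest and female replicate 2 the highest of the female values, and all stayed far below the male ones. The change of Vegfd was -3.20 ± 0.15 on the log2 scale (edgeR adjusted p = 8.78e-12), and 5.17% of all tested genes changed by more in either direction. Vegfc (ENSMUSG00000031520, chromosome 8, 54077606 to 54187096) was at 13.7, 17.4 and 18.2 CPM (female) against 41.9, 43.7 and 45.7 CPM (male). The groups did not overlap, and the change of Vegfc was -1.42 ± 0.12 (edgeR adjusted p = 2.69e-08). The window of Vegfd had 42.4% G and C, where the other 11 windows of the 10 genes had 59.2% to 76.4% and all promoters a median of 52.4%. It held a TATAAA match 73 bases before the RefSeq start, but 144 of its 250 bases lie in annotated exons of the gene.

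Vegfb and Pgf, whose products bind FLT1 and not KDR, showed no called difference. Vegfb (ENSMUSG00000024962, chromosome 19, 6982473 to 6987651), whose product binds only FLT1 and neuropilin-1, was at 63.2, 50.9 and 61.3 CPM (female) against 65.3, 65.1 and 67 CPM (male). All 3 female values of Vegfb lay below the male ones, but by a margin close to the spread of the female libraries (log2 -0.17 ± 0.09, edgeR adjusted p = 0.126). The side of Vegfb depended on the scaling: it was called lower with upper quartile scaling (-0.25, edgeR adjusted p = 0.0303) and with total counts (-0.29, 0.0168), and called higher after a correction for gene length (0.24, 0.0213). Pgf (ENSMUSG00000004791, chromosome 12, 85166635 to 85177790), first described in placenta, was at 7.04, 7.42 and 7.54 CPM (female) against 8.29, 7.1 and 7.02 CPM (male). These ranges overlapped, and the change of Pgf was -0.03 ± 0.18 (edgeR adjusted p = 0.908).

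Among the receptors, KDR RNA was close to absent, and both other receptor genes were higher in female cells. Kdr (ENSMUSG00000062960, chromosome 5, 75932827 to 75978458) counted 6, 16 and 6 reads in female replicates 1 to 3 and 0 in every male one. These counts equal 0.289, 0.819 and 0.304 CPM, with exact 95% Poisson intervals of 0.106 to 0.63, 0.468 to 1.33 and 0.111 to 0.661 CPM that cover counting error only. A count of 0 allows up to 3 counts per library as a one-sided limit, which is 0.123 to 0.151 CPM in the male libraries. The two-sided interval used for the female libraries reaches 3.69 counts there, which is 0.152 to 0.186 CPM. Set against the floor of 3 counts, the female mean of Kdr was 3.39-fold higher. Without female replicate 2, which holds 16 of the 28 counts, it was 2.14-fold higher. Against the two-sided limit both ratios would be smaller. These ratios do not include the counting error of the female libraries, and the lower limits of female replicates 1 and 3 lie below the floor. Without the low-count filter, where Kdr could be tested, it was called higher in female cells (edgeR adjusted p = 0.00184). The p-values of that fit are not on the scale of the main fit. It gave Vegfa an edgeR adjusted p of 5.56e-80 in place of 2.74e-10, at a log2 fold change of 1.54 in both. For Kdr the most abundant female library was still under 1 CPM, the lowest level of any of the 10 genes.

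Flt1 (ENSMUSG00000029648, chromosome 5, 147561604 to 147726011) was at 52.7, 67 and 53.2 CPM (female) against 26.9, 31.5 and 24.5 CPM (male). Female replicate 2 and male replicate 2 were the highest of their sex, and the sexes did not overlap. The change of Flt1 was 1.06 ± 0.12 (edgeR adjusted p = 7.68e-07). With gene length taken into account it was 0.60, a 1.52-fold difference in place of a 2.09-fold one, and it was still called (edgeR adjusted p = 0.000254). Flt4 (ENSMUSG00000020357, chromosome 11, 49609263 to 49652739), a marker of lymphatic endothelium, was at 11.3, 9.62 and 9.16 CPM (female) against 0.947, 0.957 and 1.15 CPM (male). The male values of Flt4 rest on 20, 19 and 28 counts. Its change was 3.29 ± 0.24 (edgeR adjusted p = 3.70e-09), and 4.99% of all tested genes changed by more. Prox1, the lymphatic endothelial regulator, had 5, 15 and 14 counts (female) against 0, 0 and 2 counts (male), and Lyve1 had 0, 0 and 3 against 10, 10 and 0.

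The upstream sequences of Flt1 and Kdr are shown because these paralogous receptor genes lie on the same chromosome yet stood at opposite ends of the receptor levels. Flt1 is shown for chr5:147726012-147726261 and Kdr for chr5:75978459-75978705, both on the minus strand of GRCm38, with the bases of Kdr that lie in an annotated exon left out.
Flt1: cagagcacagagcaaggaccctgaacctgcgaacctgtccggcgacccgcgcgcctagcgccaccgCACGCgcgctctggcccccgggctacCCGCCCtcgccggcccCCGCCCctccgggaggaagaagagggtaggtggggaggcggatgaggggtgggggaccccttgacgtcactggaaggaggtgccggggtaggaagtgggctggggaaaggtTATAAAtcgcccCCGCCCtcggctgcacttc
Kdr: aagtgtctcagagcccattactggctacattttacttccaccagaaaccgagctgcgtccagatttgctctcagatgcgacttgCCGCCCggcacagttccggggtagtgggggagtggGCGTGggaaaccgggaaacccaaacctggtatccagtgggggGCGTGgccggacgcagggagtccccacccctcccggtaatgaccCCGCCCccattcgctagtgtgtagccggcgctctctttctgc
Flt1 held 3 GC boxes, 1 GCGTG match and a TATAAA match 31 bases before its start. Kdr held 2 GC boxes and 2 GCGTG matches and no TATAAA. GC boxes and GCGTG were thus present upstream of both the most and the least abundant receptor gene.

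The neuropilins changed in opposite directions, and Nrp2 showed the largest difference of the 9 tested genes. Nrp2 (ENSMUSG00000025969, chromosome 1, 62703285 to 62818695) was at 178, 181 and 160 CPM (female) against 4.31, 3.17 and 3.82 CPM (male). The female level was 45.8 times the male level, with male counts of 91, 63 and 93. The change of Nrp2 was 5.51 ± 0.12 (edgeR adjusted p = 9.33e-16), the twelfth smallest p of all 14814 tested genes, and 2.07% of them changed by more. Nrp1 (ENSMUSG00000025810, chromosome 8, 128358604 to 128503363) was at 34.3, 35.6 and 31.3 CPM (female) against 82.8, 71.7 and 76.7 CPM (male). Each male library was above each female library, and the change of Nrp1 was -1.19 ± 0.09 (edgeR adjusted p = 8.91e-09). Inside the span of Nrp2 the annotation places Gm37121 on the same strand and Gm29083 on the opposite strand, neither sharing an exon base with it, while Mir1903 shares 80 exon bases with Nrp1 and had 0 counts in every library. Gm37121 counted 16, 9 and 10 reads (female) and 0 in each male replicate, and Gm29083 had 0 counts throughout.

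The upstream sequences of the neuropilins are shown because these genes of like domain structure traded places between the sexes. Nrp1 is shown for chr8:128358823-128359072 and Nrp2 for chr1:62703067-62703284, both on the plus strand of GRCm38, with the exonic end of the Nrp2 window left out.
Nrp1: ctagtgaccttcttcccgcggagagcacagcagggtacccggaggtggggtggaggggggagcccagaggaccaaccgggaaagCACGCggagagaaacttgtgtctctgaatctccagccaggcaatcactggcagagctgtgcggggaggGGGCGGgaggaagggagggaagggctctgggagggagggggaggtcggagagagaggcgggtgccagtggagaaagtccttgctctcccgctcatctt
Nrp2: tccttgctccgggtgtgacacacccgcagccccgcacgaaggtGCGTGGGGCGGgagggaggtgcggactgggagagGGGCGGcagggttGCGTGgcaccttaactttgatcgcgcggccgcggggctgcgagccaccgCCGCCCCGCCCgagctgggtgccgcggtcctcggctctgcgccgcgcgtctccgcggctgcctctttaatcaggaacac
The printed stretch of Nrp2 held 4 GC boxes and 2 GCGTG matches, and that of Nrp1 held 1 of each. The Nrp1 start in RefSeq lies inside the annotated span of the gene, so this window is not upstream of the whole gene.

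To compare genes with one another, CPM was divided by the gene length in kilobases, which is the summed exon length in the deposited table. On this per-length scale, the summed level of the 5 ligands was 319 ± 21.1 in female and 191 ± 8.65 CPM per kilobase in male cells (SD, n = 3 each). The receptors summed to 5.54 ± 0.60 and 2.17 ± 0.25 and the neuropilins to 18 ± 1.18 and 8.2 ± 0.62 CPM per kilobase. Ligand RNA thus exceeded receptor RNA in every library of both sexes, and all of these sums were higher in the female libraries.

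The make-up of each role differed between the sexes. Vegfa made up 85.1%, 84.3% and 83.9% of the ligand level per length in female replicates 1 to 3 and 50.9%, 44.3% and 50% in male replicates 1 to 3. Vegfd made up 1.27% ± 0.43 in female and 19.3% ± 2.32 in male cells, and Vegfc 2.12% ± 0.40 and 9.39% ± 0.60 (SD, n = 3 each). Vegfb made up 11.4% ± 0.58 and 21.5% ± 0.87 although its own level was not called. Flt1 was the main receptor RNA, with 73.5%, 79.8% and 77.4% of the receptor level per length in female replicates 1 to 3 and 94.5%, 95.3% and 92.8% in male replicates 1 to 3. Flt4 held nearly all of the rest, 22.2% ± 3.58 in female and 5.79% ± 1.23 in male cells. Nrp1 made up 19%, 19.2% and 19.2% of the neuropilin level per length in female libraries and 95.9%, 96.5% and 96% in male libraries. Nrp2 was therefore the predominant neuropilin RNA in every female library and Nrp1 in every male library. These shares are descriptions without a test.

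**Figure D2:**
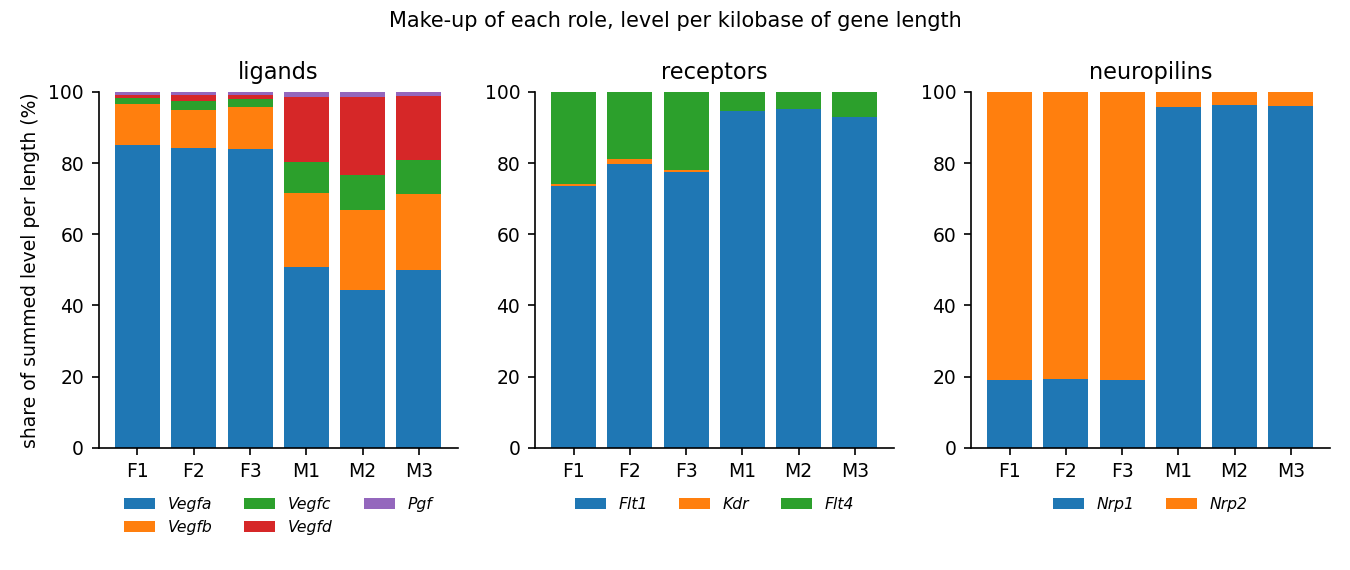
Stacked bars for the 6 libraries (F1 to F3 female, M1 to M3 male) show the percent that each gene contributes to the summed level per kilobase of gene length of the ligands, receptors and neuropilins. Nrp2 fills 80.9% of the neuropilin bar in female cells on average and 3.87% in male cells, and Vegfa fills 84.4% and 48.4% of the ligand bar.

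Ordered by level per length, the female libraries ran Vegfa, Vegfb, Nrp2, Vegfc, Flt1, Vegfd, Nrp1, Pgf, Flt4 and Kdr. Only 2 neighbouring pairs in that order overlapped between libraries, Flt1 with Vegfd and Vegfd with Nrp1. The male libraries ran Vegfa, Vegfb, Vegfd, Vegfc, Nrp1, Pgf, Flt1, Nrp2, Flt4 and Kdr, and no neighbouring pair overlapped. The distance from Vegfa to Vegfb was 7.39-fold in female and 2.26-fold in male cells. Vegfb and Vegfd stood close together in male cells, at 41 ± 0.63 and 36.6 ± 2.67 CPM per kilobase (SD, n = 3). Pgf stood at 2.53 ± 0.09 and 2.57 ± 0.24 CPM per kilobase in female and male cells.

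**Figure D3:**
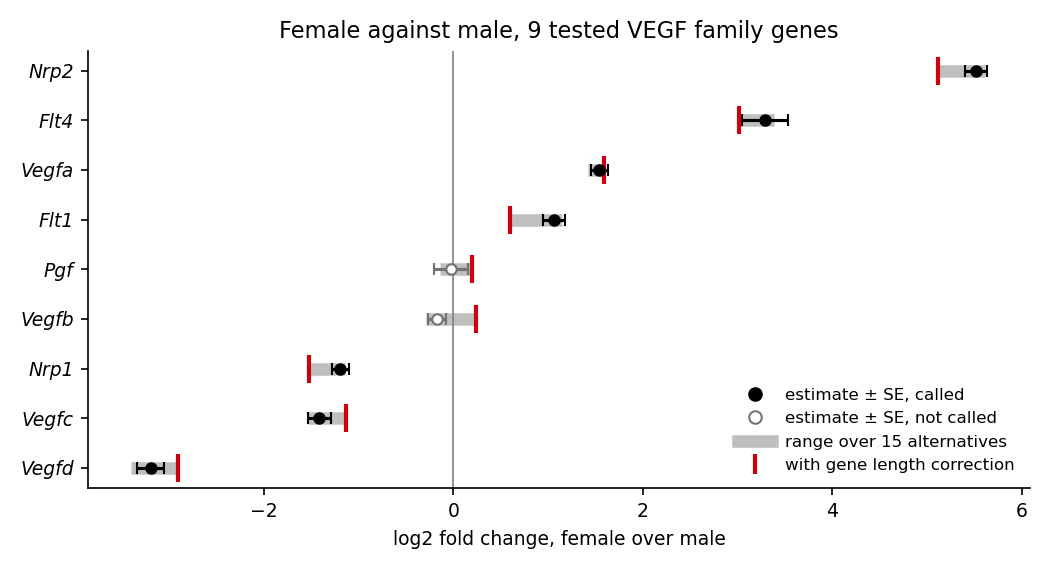
Log2 fold change of female over male for the 9 tested genes: points with bars are the edgeR estimate ± SE (filled where called), grey bands span 15 alternative analyses and red ticks mark the estimate after correction for gene length. Nrp2 at 5.51 and Vegfd at -3.20 lie at the ends, and only the bands of Vegfb and Pgf cross 0.

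Gene length moved with the comparison across the whole table. Over tested genes averaging 5 CPM or more, the median log2 fold change was -0.40 in the shortest of 5 length classes with about as many genes each (up to 2541 bases) and 0.39 in the longest (from 7783 bases). The receptor and neuropilin genes are all in the longest class, with 13504 bases for Flt1, 9030 for Kdr, 8232 for Flt4, 9785 for Nrp1 and 11842 for Nrp2. Vegfb, Vegfc and Vegfd, at 1605, 2449 and 2408 bases, are in the shortest class. Nrp1 went against this trend, and with the length correction its change was -1.52 in place of -1.19. With that correction Nrp2 was at 5.11, Flt4 at 3.01, Vegfa at 1.58, Vegfc at -1.13 and Vegfd at -2.91 on the log2 scale, each called in the same direction as before. Vegfa, at 4285 bases, lies between these classes.

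The genes whose pattern over the 6 libraries was most like that of the leading gene of each role were found by Pearson's r of log2 CPM, as a description over 10806 genes. For Vegfa these were Enah, Armcx4 and Gpm6b (each with r = 0.999), for Flt1 Pabpc1 and Tnfrsf23 (each with r = 0.999), and for Nrp2 Rgs16, Fam129a and Lrrn3 (each with r = 0.9998). Since the 6 libraries form one group per sex, the difference between the sexes enters every r, and 251, 63 and 588 genes reached an r above 0.99 with Vegfa, Flt1 and Nrp2. Lrrn3, for example, was at 137 ± 18.7 CPM (female) and 1.51 ± 0.32 CPM (male) (SD, n = 3 each).

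Other genes of the VEGF pathway were followed in 6 lists, with levels as mean CPM ± SD (n = 3 each, female before male) and log2 fold changes ± SE. Of the factors that control VEGF ligand genes under low oxygen, 5 of 9 tested genes were higher in female cells, 3 were lower and 1 was not called, with a median log2 fold change of 0.25. The called genes were 88.9% of those tested, against 60.7% of all tested genes. Hif1a, the oxygen-regulated subunit of HIF-1, was at 411 ± 10 CPM (female) and 193 ± 22.7 CPM (male) (log2 1.09 ± 0.09). Its partner Arnt was at 120 ± 8.86 and 88.7 ± 5.11 CPM (0.44 ± 0.08), and the related Arnt2 at 107 ± 8.95 and 17.2 ± 0.76 CPM (2.63 ± 0.10). Egln3, a prolyl hydroxylase that marks HIF subunits for degradation and is itself induced by HIF, was at 29.3 ± 0.79 and 22.5 ± 0.82 CPM (0.38 ± 0.11). The 3 lower genes were Epas1, Vhl and Egln2. Epas1 was at 32 ± 7.15 and 41.7 ± 3.87 CPM, with overlapping libraries. Vhl was at 26.1 ± 0.42 and 34 ± 3.93 CPM, and Egln2 at 61.1 ± 7.04 and 74 ± 0.58 CPM. With the correction for gene length 4 of the 9 were called, and Arnt then missed the threshold (0.17, edgeR adjusted p = 0.0507). Without female replicate 1, 5 were called.

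Genes that process VEGF ligands or hold them in the matrix split widely. Of 15 tested, 9 were called higher and 5 lower on the female side (93.3% called, against 60.7% of all tested genes), with a median of 0.55. Among the lower genes, Adamts3, Pcsk5 and Pcsk6 passed the low-count filter only through the male libraries. Among the higher genes, Mmp9 had 43, 34 and 60 female and 9, 12 and 10 male counts and passed it through the female libraries. The share of called genes therefore follows in part from the filter. Adamts1 and Adamts14, secreted metalloproteases of which the first binds and sequesters VEGF-A, were at 384 ± 17.3 against 34.6 ± 2.67 CPM and at 223 ± 11.4 against 30.7 ± 3.59 CPM (log2 3.47 ± 0.09 and 2.86 ± 0.10). Mmp3, a stromelysin that cleaves matrix-bound VEGF-A, reached 13717 ± 405 CPM (female) and 3039 ± 229 CPM (male), and Hspg2, the perlecan gene, 1371 ± 127 and 704 ± 65.8 CPM. Ccn2, named Ctgf in the table and encoding a matricellular protein that binds VEGF-A, was at 6.46 ± 2.40 and 319 ± 0.62 CPM (-5.63 ± 0.16). Pcsk6, a proprotein convertase, had 4655 counts in the male libraries and 1 in the female ones, a ratio of 4278 with a 95% counting interval of 767 to 169020. That count is in female replicate 3, and without this library Pcsk6 was at 0 in female cells and at least 475-fold lower, against a floor of 3 counts per library. Ccbe1 and the protease gene Adamts3, whose products take part in maturing pro-VEGF-C, went apart and are named here after their values were seen. Ccbe1 had 2521, 2600 and 2153 female and 367, 353 and 480 male counts. Adamts3 had 2, 6 and 3 counts (female) against 31, 53 and 68 counts (male). Their log2 fold changes were 2.73 and -3.61 (edgeR adjusted p = 4.40e-13 and 2.91e-05). Adamts3 does not stand for the other processing genes of the list, since Adamts14 and Adamts2 were called higher in female cells. Of the convertase genes, Furin (352 ± 42.7 against 149 ± 9.26 CPM) and Pcsk7 were higher. Pcsk5 (0.134 ± 0.13 against 11.8 ± 0.79 CPM) and Pcsk6 were lower.

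Among partners and brakes of the receptors, 9 of 19 tested genes were called higher and 5 lower on the female side (73.7% called, against 60.7% of all), with a median of 0.32. The genes of the integrin pair that couples to VEGF receptors were higher, Itgav at 243 ± 18.3 against 111 ± 8.08 CPM and Itgb3 at 137 ± 11.3 against 49.9 ± 4.81 CPM. Dab2, an endocytic adaptor of VEGF receptors, was at 759 ± 82.9 and 356 ± 34.4 CPM (log2 1.09 ± 0.09), and Spred1, a brake on the RAS and MAP kinase route, at 642 ± 68.1 and 328 ± 22.8 CPM (0.97 ± 0.09). Spry1, another brake on that route, was lower in female cells at 9.73 ± 1.21 against 109 ± 1.62 CPM (-3.49 ± 0.10). Ptprb, the endothelial phosphatase gene, had 0, 0 and 1 counts (female) against 0, 8 and 0 counts (male) and was not tested.

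Of 46 tested genes that relay the receptor signal, 22 were called higher and 9 lower on the female side, with a median of 0.17 and a median size of 0.38, and the 31 called equal 67.4% against 60.7% of all tested genes. One of the listed genes, Pdk1, is the pyruvate dehydrogenase kinase and not a relay kinase, and without it 22 of 45 were higher and 8 lower. Prkcb, a protein kinase C gene, was at 57.4 ± 12.1 and 2.71 ± 0.26 CPM (log2 4.40 ± 0.17), and Pik3cb, a catalytic subunit of PI3 kinase, at 18.3 ± 3.64 and 3.37 ± 0.18 CPM (2.44 ± 0.18). Pxn, the focal adhesion adaptor paxillin, was at 251 ± 8.25 and 141 ± 9.25 CPM, and Map2k2, the MEK2 gene, was lower at 128 ± 12.1 against 255 ± 20.3 CPM (-0.995 ± 0.089). The relay genes with the highest level, Akt1 and Shc1, were at 415 ± 16.3 against 271 ± 3.79 CPM and 388 ± 10.3 against 312 ± 24.1 CPM. Nos3, the endothelial nitric oxide synthase gene downstream of KDR, had 4, 3 and 3 counts (female) against 4, 0 and 9 counts (male).

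Of 19 tested genes known to be induced by VEGF in endothelial cells, 10 were higher, 8 lower and 1 not called in female cells, with a median of 0.26. The called genes were 94.7% of those tested against 60.7% of all tested genes, and the median size was 1.99 against 0.53. Cxcr4, among the higher genes, had 0 counts in every male library and passed the low-count filter only through the female ones. Esm1, the endocan gene of endothelial tip cells, was at 21.5 ± 6 CPM (female) and 1293 ± 107 CPM (male) (log2 -5.91 ± 0.16). Vcam1, a leukocyte adhesion molecule gene, was also lower, at 93 ± 4.78 against 1593 ± 79.8 CPM (-4.10 ± 0.09). Nr4a1, an immediate early nuclear receptor gene, and Plau, the urokinase gene, were higher, at 242 ± 36.7 against 35.8 ± 3.84 CPM and 112 ± 4.58 against 13.1 ± 1.75 CPM (2.76 ± 0.11 and 3.09 ± 0.11). The list held large changes both ways, so no single direction describes it.

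The semaphorin system that shares the neuropilins differed in all 11 of its tested genes, 8 called higher and 3 called lower on the female side. Their median was 1.29. Of all tested genes 60.7% were called, 30.9% higher and 29.8% lower. Sema3g and L1cam had too few counts to be tested. Sema3d and Sema3e, among the lower genes, passed the low-count filter only through the male libraries. The count of called genes therefore follows in part from the filter. Sema3a, whose product binds NRP1, was at 266 ± 42.2 CPM (female) and 78.2 ± 3.79 CPM (male) (log2 1.77 ± 0.10). Sema3f, whose product binds NRP2, was at 133 ± 6 and 42.4 ± 1.58 CPM (1.65 ± 0.08). Sema3d went the other way, at 0.314 ± 0.17 against 16 ± 2.94 CPM (-5.64 ± 0.30). The plexin genes Plxna1, at 334 ± 48 against 131 ± 6.59 CPM, and Plxna4, at 25.6 ± 5.12 against 1.26 ± 0.52 CPM, encode the signalling partners of neuropilins and were both higher (1.35 ± 0.10 and 4.37 ± 0.25). Every log2 fold change given for a gene of these 6 lists has an edgeR adjusted p of at most 0.00507 when all 6 libraries enter without a length correction.

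**Figure D4:**
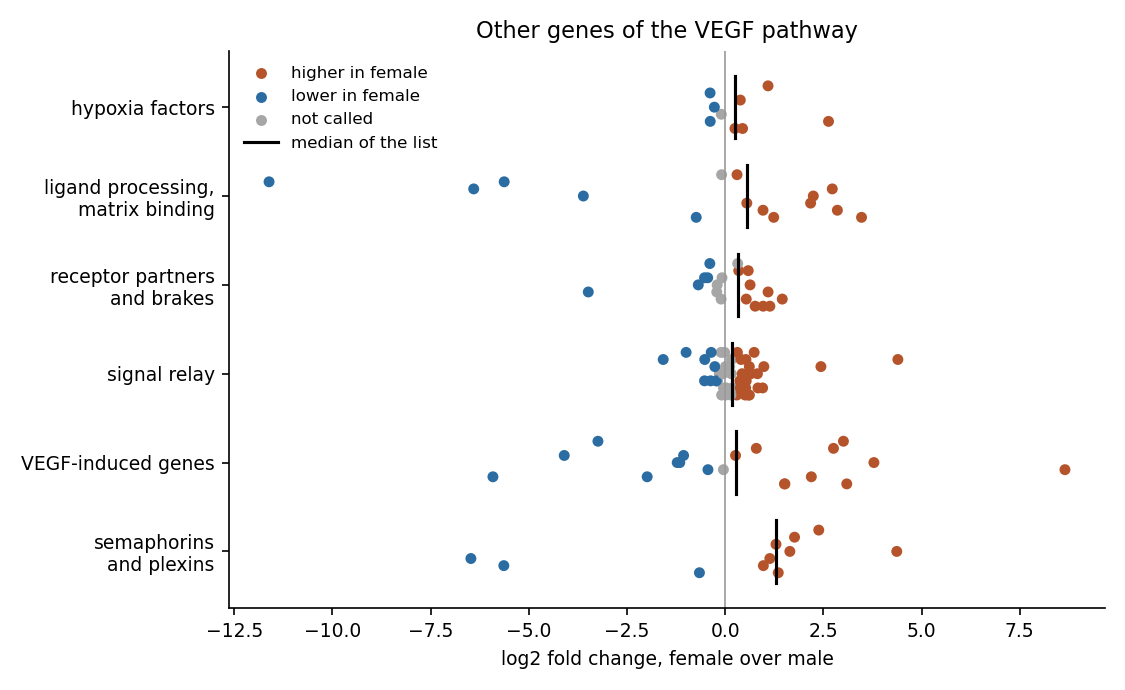
Each point is the log2 fold change of female over male of a tested gene in 6 lists of the VEGF pathway, coloured by its call, with a black bar at the median of the list. The medians lie between 0.17 for the signal relay and 1.29 for semaphorins and plexins, and every list holds genes called in both directions.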

How the data were processed

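Polyadenylated RNA of 6 libraries was sequenced. Per the submitters' processing notes, HISAT2 2.0.5, featureCounts 1.5 and mm10 were used; the strand setting and the handling of multi-mapping reads are not given in the sources used here. The authors deposited raw read counts per gene, whole numbers without normalization, with gene lengths. Each count column was matched to its sample by library name, with 0 columns left over. No library repeats another (chi-square over df of same-sex pairs 8.83 to 20.2). The test was edgeR 4.0.16 under R 4.3.3 (filterByExpr, TMM factors 0.948 to 1.06 over total counts, glmQLFit, glmQLFTest, sex as the only term, two-sided). The SE of a change is its size over the root of F. The fit was tested on simulated data. Alternatives were RLE, upper quartile and total-count scaling, no filter, protein-coding genes only, offsets that remove a loess trend of log2 CPM on log2 gene length, DESeq2 1.42.0, limma-voom (limma 3.58.1), a replicate block and leaving out each library. Coordinates are those of the table and are identical in GENCODE M21, and promoter windows are RefSeq's for GRCm38.p6. The text names all 10 genes and, of each other list, up to 4 tested members with the smallest adjusted p and 2 with the highest mean CPM, and for the leading gene of each role the 3 genes of most similar pattern, of which one is not reported here; other names were chosen after their values were seen. The members and lists were chosen with earlier results of these data known.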

Additional observations from a re-analysis of the deposited data

How the results depend on the processing

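Vegfa, Vegfc, Vegfd, Flt1, Flt4, Nrp1 and Nrp2 kept their direction and their call in all 15 alternatives. The number of called genes among the 10 was 7 or 8 throughout, and that over all genes was 8235 to 9320. Vegfb turned to 0.24 with the gene length correction. The count of called hypoxia factors was 8, and it was 4 with the gene length correction and 5 to 8 when single libraries were left out; the cause was not tested. Total-count scaling shifted the median of all genes by -0.12 on the log2 scale, with 3956 genes higher and 5296 lower in place of 4580 and 4413, and upper quartile scaling gave 4170 and 4990. Without division by gene length, Vegfa made up 92.6% of the ligand, Flt1 84.4% of the receptor and Nrp1 16.3% of the neuropilin level in female cells and 65.7%, 96.4% and 95.4% in male cells, by construction of that alternative. Libraries with the same replicate number did not deviate together (r = -0.03, -0.11 and -0.16 for numbers 1 to 3), and no library correlated best with its own number. With the replicate block 8525 genes were called in place of 8993, and 7 of the VEGF family genes, as without it. Depth limits Kdr, whose male level is bounded only by 3 counts per library.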
